A study of Nothobranchius furzeri with 20 samples.

Results

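The effect of rotenone on the brain transcriptome was taken over both ages at once, from all 20 libraries of the study: 10 of fish given rotenone against 10 of fish given DMSO. All animals were males of the MZM-04/10p strain of the turquoise killifish, Nothobranchius furzeri, a fish with a brief life span that serves as a vertebrate model of ageing. DMSO fish received the solvent alone and were labelled as 9 weeks of age (5 libraries) or 27 weeks (5 libraries). Rotenone fish received 1% of the LC50, the median lethal concentration, and were labelled as 9 weeks (5 libraries) or 27 weeks (5 libraries). The source labels do not say whether these are ages at treatment or at sampling. The labels name no allele or transgene, and give neither the length of the treatment nor the fish behind each library. Since separate fish are not stated, p-values reflect the library-to-library spread, which may be technical. That spread exceeded sampling noise in all 40 pairs of libraries within groups (chi-square per degree of freedom 7.80 to 57.1). Its source was not tested. Age entered the model as an additive term, which leaves 1 rotenone effect per gene.

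Rotenone is a plant compound that blocks complex I of the mitochondrial respiratory chain, where NADH hands its electrons to ubiquinone. Neurons depend strongly on this chain for ATP, and at high doses rotenone is used in rodents to damage dopaminergic neurons. At low doses, a partial block of complex I is studied as a mild mitochondrial stress.

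Libraries held between about 19434000 and 24159800 counts, and 19452 of 26739 genes passed the filter on low counts. Total counts, genes with a count, the share of the 10 most abundant genes and scaling factors did not pass a test for rotenone (exact permutation within age, two-sided, adjusted p = 0.706 to 0.737 over 4 measures). Genes with a count numbered 21546 ± 89.4 in DMSO and 21578 ± 62.2 in rotenone (SD, n = 10 each). Genes carry identifiers with no names attached, and 0 of these matched the gene table used here, so neither pathways nor cell type markers could be examined, and the labelled tissue was not checked against brain markers. In whole brain RNA, fewer cells of a type and less RNA per cell cannot be told apart. A pair of DMSO libraries stood apart from their groups over the genes reported below: replicate 5 of 9 weeks and replicate 1 of 27 weeks. The latter also lay far from the other libraries on the second principal component over all tested genes. It stood there at 72.04, with the next library, DMSO replicate 4 of 27 weeks, at 29.07.

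Rotenone changed the level of 49 genes over both ages, 0.252% of the tested set (adjusted p below 0.05 by edgeR's quasi-likelihood test). Of these, 28 were higher (0.144%) and 21 lower (0.108%) in rotenone fish. Most changes were modest. The genes that rose did so by a median of 1.43-fold, with log2 changes from 0.22 to 1.27, and 9 of them rose over 1.5-fold. Genes that fell had a median log2 change of -0.33, and 7 of 21 fell by over 1.5-fold. In the same fit, age changed 8233 genes, 42.3% of those tested. An unadjusted edgeR p below 0.05 for rotenone was seen for 2118 genes (10.9%), 951 higher and 1167 lower.

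**Figure D1:**
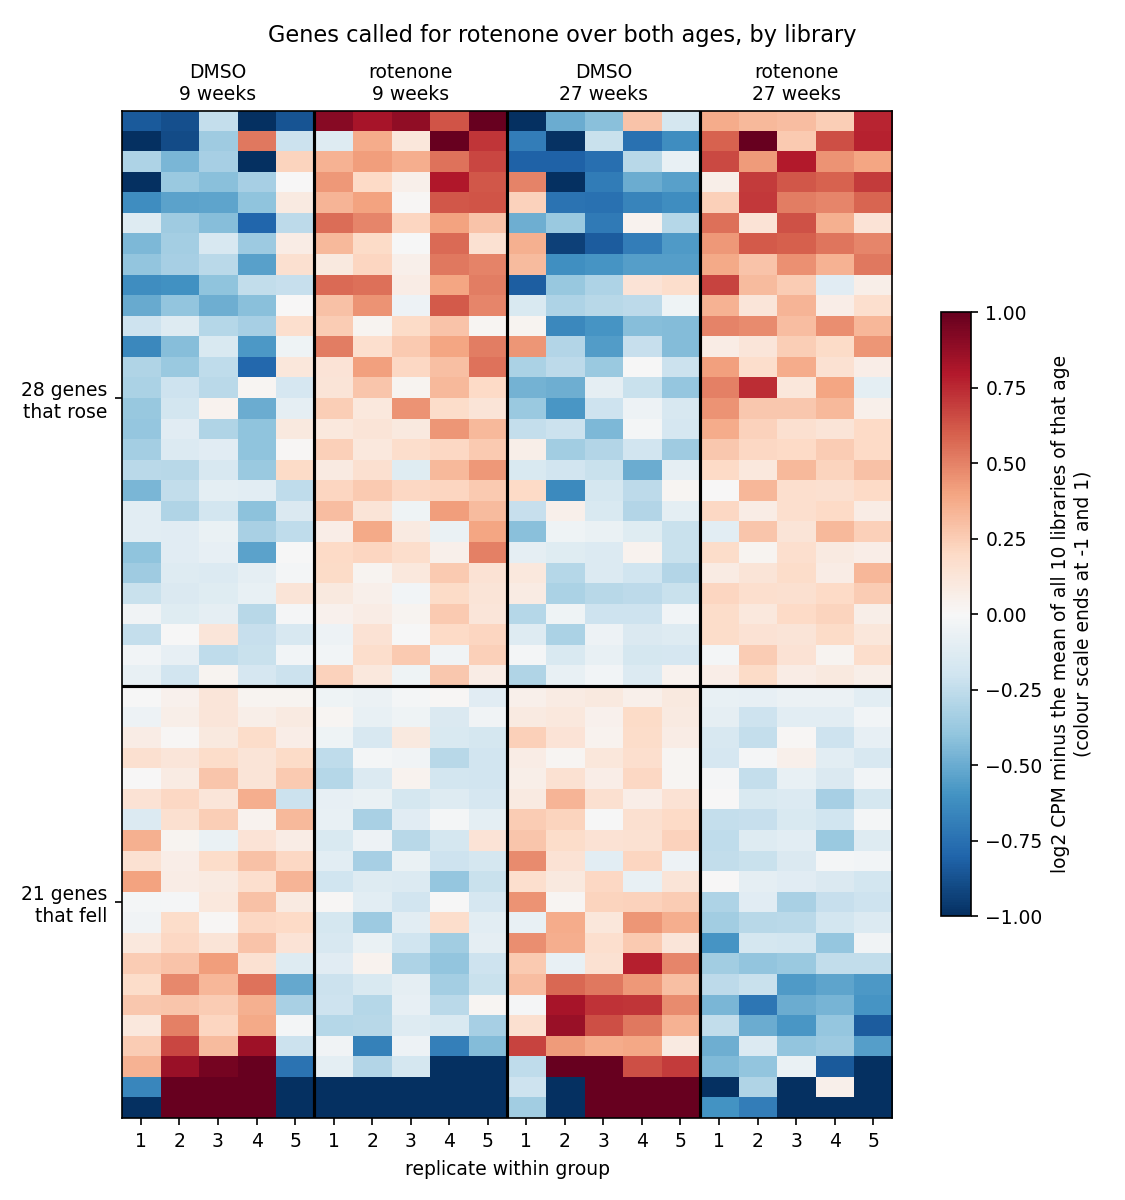
Level of the 49 called genes (rows, in order of their change) in the 20 libraries (columns), as log2 CPM minus the mean of the 10 libraries of that age. The 28 genes that rose are mostly red in rotenone and mostly blue in DMSO libraries, and the 21 that fell mostly the reverse. The choice of genes favours this pattern. Exceptions are most frequent in DMSO replicate 5 of 9 weeks and replicate 1 of 27 weeks, which lie above the mean of their age for 12 and 10 of the 28 genes.

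The gene with the smallest p, Nfu_g_1_001278, rose with rotenone at both ages. Its level, in TMM-scaled CPM (counts relative to the library total), was 32.9, 28.0, 26.7, 20.7 and 29.9 in the DMSO libraries of 9 weeks and 53.0, 50.5, 41.7, 47.5 and 43.8 in the rotenone libraries. At 27 weeks it stood at 30.4, 32.9, 26.0, 43.7 and 34.9 CPM in DMSO and at 62.4, 46.9, 66.5, 54.5 and 47.0 CPM in rotenone. The groups did not overlap at either age, although DMSO replicate 4 of 27 weeks lay above the lowest rotenone library of 9 weeks. Over both ages the mean went from 30.6 ± 6.17 to 51.4 ± 7.94 CPM (SD, n = 10 each), a log2 change of 0.75 ± 0.09 (SE) at an edgeR adjusted p of 0.00236, with a 95% interval from 0.55 to 0.95. Its log2 change was 0.77 ± 0.14 at 9 weeks and 0.72 ± 0.14 at 27 weeks. These changes differed by -0.05 ± 0.19 (SE; edgeR adjusted p = 0.953). Per length, its mean level of 7.44 RPKM (reads scaled to gene length and library total) lay above about 50.8% of tested genes.

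Nfu_g_1_008034 showed a smaller and tighter rise. It stood at 76.8, 88.4, 90.2, 73.6 and 98.1 CPM in DMSO and at 114.6, 104.7, 109.9, 112.5 and 116.6 CPM in rotenone at 9 weeks. At 27 weeks the values were 120.6, 91.1, 94.9, 101.8 and 90.6 CPM in DMSO and 140.0, 134.2, 133.6, 138.2 and 132.9 CPM in rotenone. Again no library of either treatment overlapped with the other within an age. The highest DMSO libraries were replicate 5 at 9 weeks and replicate 1 at 27 weeks. The log2 change was 0.42 ± 0.05 (SE; edgeR adjusted p = 0.00236), from 92.6 ± 13.1 to 123.7 ± 13.2 CPM (SD, n = 10 each), which is 1.33-fold. It was 0.39 ± 0.08 at 9 weeks and 0.44 ± 0.08 at 27 weeks. Age raised this gene by 0.25 ± 0.05 on the log2 scale (edgeR adjusted p = 0.000941), and its mean of 40.5 RPKM lay above about 90.4% of tested genes.

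Among genes that fell, Nfu_g_1_002272 had the smallest p. Its levels at 9 weeks were 32.7, 43.2, 35.3, 39.7 and 30.07 CPM in DMSO and 24.9, 25.14, 27.8, 27.3 and 24.12 CPM in rotenone. At 27 weeks they were 27.4, 44.7, 38.4, 35.3 and 31.2 CPM in DMSO and 20.6, 17.3, 16.3, 18.7 and 13.7 CPM in rotenone. All rotenone libraries lay below all DMSO libraries of their age. The mean went from 35.8 ± 5.68 to 21.6 ± 4.94 CPM (SD, n = 10 each), a log2 change of -0.75 ± 0.11 (SE), with an edgeR adjusted p of 0.00525. The fall was -0.48 ± 0.13 on the log2 scale at 9 weeks and -1.03 ± 0.13 at 27 weeks. The difference between the ages, -0.55 ± 0.18, did not pass the test over all genes (edgeR adjusted p = 0.294, unadjusted p = 0.00623).

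Nfu_g_1_022730 fell by nearly the same amount at both ages. It stood at 11.8, 15.7, 12.3, 17.8 and 8.46 CPM in DMSO and 9.63, 6.12, 9.47, 6.10 and 7.27 CPM in rotenone at 9 weeks, where DMSO replicate 5 overlapped with the rotenone libraries. At 27 weeks it stood at 15.7, 13.2, 12.7, 12.9 and 10.4 CPM in DMSO and 6.96, 8.92, 7.42, 7.60 and 6.68 CPM in rotenone, with no overlap. The log2 change was -0.78 ± 0.12 (SE; edgeR adjusted p = 0.00716), from 13.1 ± 2.73 to 7.62 ± 1.30 CPM (SD, n = 10 each). Within the ages it was -0.77 ± 0.18 at 9 weeks and -0.79 ± 0.18 at 27 weeks.

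**Figure D2:**
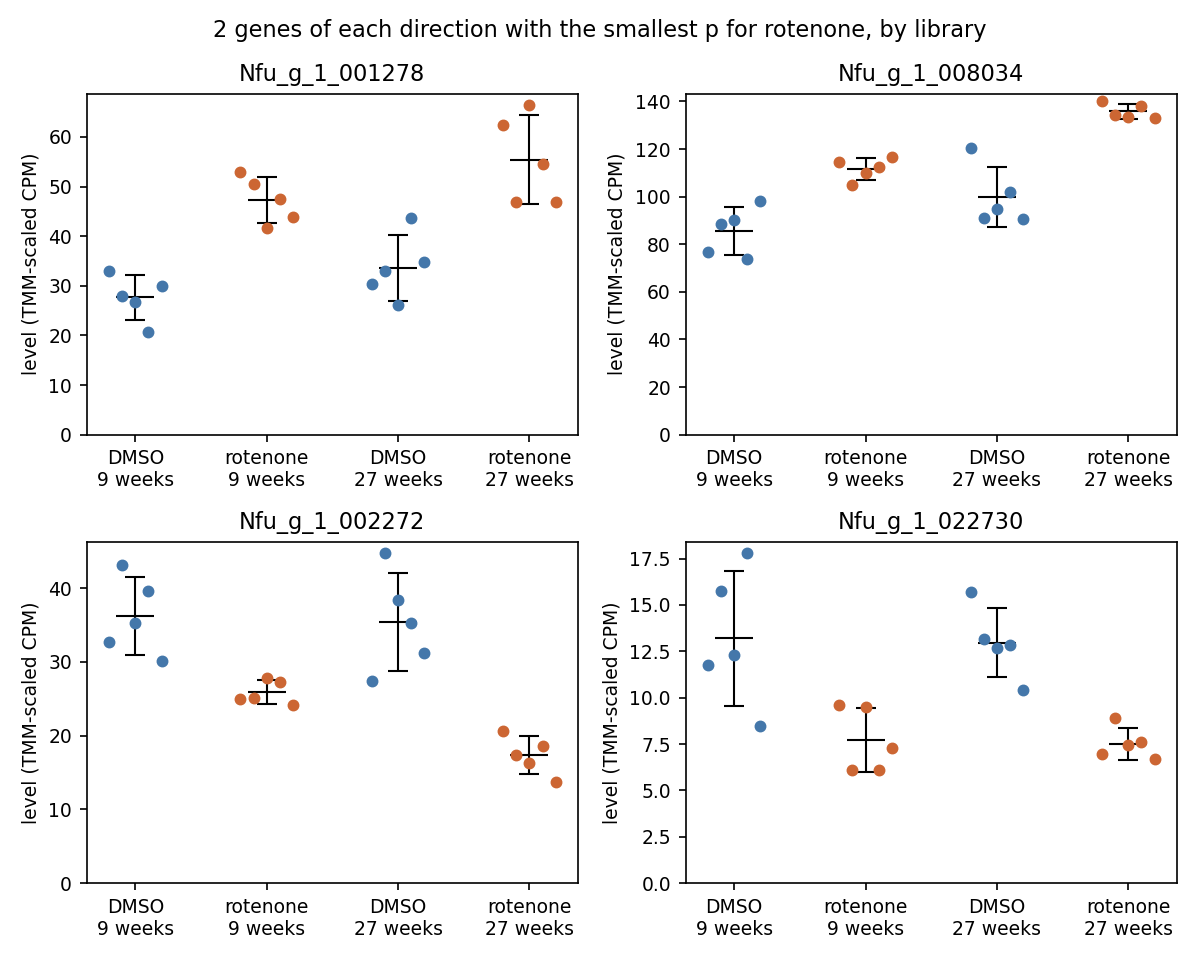
Level of the 2 genes of each direction with the smallest p, in TMM-scaled CPM on a linear axis from 0, by group. Points are libraries (blue for DMSO, orange for rotenone), and bars give the mean and SD of 5 libraries. Nfu_g_1_001278, Nfu_g_1_008034 and Nfu_g_1_002272 show no overlap between treatments within an age.

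The other called genes covered a wide range of levels and are described without identifiers, chosen after their values were seen. The most abundant gene that rose had a mean of 519 CPM and went from 336 ± 73.7 to 517 ± 58.7 CPM at 9 weeks and from 513 ± 51.4 to 710 ± 73.0 CPM at 27 weeks (SD, n = 5 each). Its log2 change was 0.54 ± 0.09 (SE; edgeR adjusted p = 0.00716), and its libraries did not overlap within either age. The most abundant gene that fell had a mean of 238 CPM, with a log2 change of -0.33 ± 0.06 (SE) at an edgeR adjusted p of 0.0207, which was -0.19 ± 0.07 at 9 weeks and -0.48 ± 0.07 at 27 weeks. With 1 library left out, it was called in 16 of 20 fits. At the other end of size, a gene at 132 CPM fell to 0.921 of its DMSO level, a log2 change of -0.12 ± 0.02 (SE) at an edgeR adjusted p of 0.0419, and was called in 5 of those 20 fits. Its 5 rotenone libraries of 27 weeks lay between 119.0 and 122.8 CPM and its 5 DMSO libraries between 132.1 and 136.9 CPM.

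Among called genes with a mean of at least 1 on the log2 CPM scale, the largest rise was 1.94-fold. That gene stood at 20.0 to 64.8 CPM in DMSO and 70.5 to 87.9 CPM in rotenone at 9 weeks (medians 44.0 and 74.0), and at 33.6 to 55.9 and 77.5 to 102.3 CPM at 27 weeks (medians 35.0 and 80.5). All 10 rotenone libraries lay above all 10 DMSO libraries, whatever the age. Such complete separation was seen for 1 gene that rose (0.00514% of tested genes) and 1 that fell (0.00514%), together 0.0103%. Within each age separately and in the same direction, 10 genes had no overlap (0.0514%), 7 higher (0.036%) and 3 lower (0.0154%). Of these, 7 higher and 2 lower genes were among the 49. Another 4 of the 19452 tested genes had no overlap at either age but changed in opposite directions. How many genes would separate at both ages by chance was not tested. At 9 weeks alone 15 genes that rose and 5 that fell had no overlap, against 1.39% of tested genes in either direction, and at 27 weeks 18 and 15, against 4.08%. These counts rest on the contrast that chose the genes and are a description. The largest fall above that level went from 28.9 ± 14.9 to 11.7 ± 4.16 CPM at 9 weeks and from 24.3 ± 8.42 to 9.44 ± 3.47 CPM at 27 weeks (SD, n = 5 each), with overlap at both ages. Its log2 change was -1.33 ± 0.26 (SE; edgeR adjusted p = 0.0393), and it was called in 5 of the 20 fits that leave out 1 library.

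A pair of low genes split the DMSO libraries into those with clear counts and those with almost none, while rotenone libraries had almost none. The first stood above 1 CPM in 6 of 10 DMSO libraries, at 1.30 to 4.43 CPM, and did not exceed 0.184 CPM in the remaining DMSO libraries. In rotenone fish 0 of 10 libraries passed 1 CPM and the highest held 3 counts. The second followed it, above 1 CPM in the same 6 DMSO libraries, 3 of each age, and at most 0.292 CPM or 7 counts in rotenone fish. Summed over 10 libraries, the counts were 405 in DMSO against 8 in rotenone for the first gene and 393 against 17 for the second. Both genes passed the filter on low counts through the DMSO libraries, and each was called in 4 of the 20 fits that leave out 1 library. With several DMSO libraries as low as the rotenone libraries, the fitted fold changes of this pair are not well defined. The only other called gene that fell over 2-fold was the one described above with the largest fall.

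Both sets of called genes had a higher median length and level than the tested genes as a whole, genes that rose more so. Median level was 17.7 RPKM for genes that rose, 10.9 for genes that fell and 7.22 for all tested genes. With the tested genes ordered by mean RPKM and cut into 3 equal parts, 6484 genes each, 19 of the 28 lay in the upper, 7 in the middle and 2 in the lower part. For the 21 genes that fell in level these numbers were 9, 8 and 4. Median length was 4083.5 bases for genes that rose, 2796 for genes that fell and 2669.5 for all tested genes. By length, 16 of the 28 were in the longest of 3 such parts and 5 in the shortest, against 6 and 7 of the 21. Precision differed with level: the median SE of the log2 change was 0.19, 0.08 and 0.05 in the lower, middle and upper part by log2 CPM.

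Within groups, part of the called genes varied together. After subtracting group means, 33 of 378 pairs of genes that rose (8.73%) had a correlation of log2 CPM above 0.7 over the 20 libraries, against 1.102% of all pairs of tested genes. The median was 0.16 for pairs that rose, -0.01 for the 210 pairs that fell and -0.001 over all pairs. These correlations are a description and carry no test, since all genes share the same libraries and scaling. Of the pairs that fell, 4 (1.90%) lay above 0.7. Between genes that rose and genes that fell, 4 of 588 pairs lay above 0.7 and 9 below -0.7. Linking genes by correlations above 0.7 gave 1 block of 13 genes, 10 that rose and 3 that fell. It also gave 5 blocks of 2 or 3 genes, and left 24 genes unlinked. Negative correlations formed no links, so a block does not follow the direction of the rotenone change.

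In this block, the library labelled DMSO replicate 1 of 27 weeks differed from its group. For 10 of the 10 block genes that rose it was the highest of the 5 DMSO libraries, and for 5 it reached the range of the rotenone libraries of that age. Because the block was linked over these same libraries, 1 displaced library can itself join its genes, so these counts are a description. Over all 28 genes that rose, this library was the highest of its group in 11. The block gene with the largest rise stood at 29.15 CPM there, against 7.70 to 14.6 CPM in the other 4 DMSO libraries and 21.4 to 33.5 CPM in rotenone. Its log2 change was 0.90 ± 0.18 (SE; edgeR adjusted p = 0.0407), a call that held in 5 of the 20 fits with 1 library left out. At 9 weeks DMSO replicate 5 was the more displaced library. Over the 49 genes it was closer to the mean of the rotenone libraries than to the other 4 DMSO libraries (log2 of CPM + 0.1) in 23, replicate 1 of 27 weeks in 15, and the other 18 libraries were closer to the opposite treatment in 0 to 10. For the 28 genes that rose, DMSO replicate 5 of 9 weeks had a median centred log2 level of -0.02 and replicate 1 of 27 weeks one of -0.15. The other 8 DMSO libraries lay at -0.37 to -0.21, against 0.09 to 0.32 in rotenone. The contrast of these same libraries chose the 49 genes, which favours a separation by treatment, so the positions are a description. For the 21 genes that fell, replicate 5 of 9 weeks lay at 0.07, and replicate 1 of 27 weeks at 0.16. The latter was within the 0.11 to 0.29 of the other 8 DMSO libraries. Of these 21 genes it was closer to rotenone in 5, DMSO replicate 5 of 9 weeks in 9 and DMSO replicate 1 of 9 weeks in 8.

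**Figure D3:**
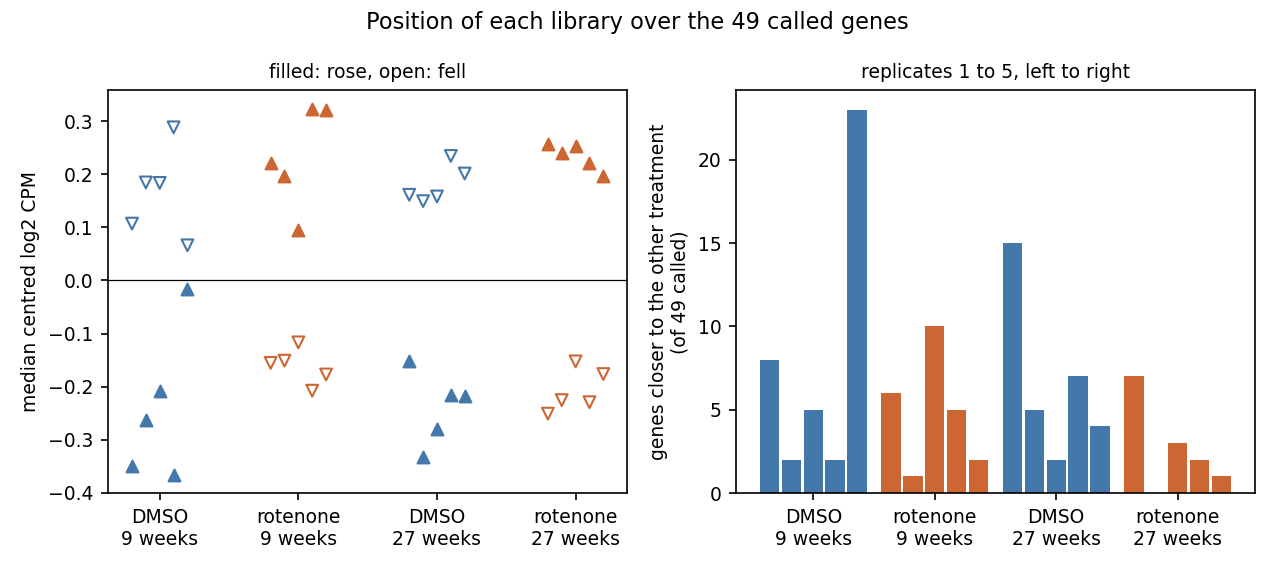
Position of each library over the 49 called genes. Left, the median over the 28 genes that rose (filled triangles) and the 21 that fell (open triangles) of log2 CPM minus the mean of that age. Right, bars from 0 count the genes for which a library lay closer to the other treatment. They reach 23 of 49 in DMSO replicate 5 of 9 weeks and 15 in DMSO replicate 1 of 27 weeks. The choice of the genes from these same libraries favours the separation of treatments.

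Leaving out 1 library moved the number of called genes strongly. It rose to 125 (90 higher, 35 lower) without DMSO replicate 1 of 27 weeks, with all 49 genes among them, and to 87 (50 higher, 37 lower) without DMSO replicate 5 of 9 weeks, with 47 among them. At 9 weeks it dropped to 27, 28 and 25 without DMSO replicates 2, 3 and 4, and to 29, 27 and 26 without rotenone replicates 2, 4 and 5. At 27 weeks it dropped to 32, 29, 29 and 28 without DMSO replicates 2 to 5, and to 25, 24, 24, 22 and 28 without rotenone replicates 1 to 5. It was 43 without DMSO replicate 1, 39 without rotenone replicate 1 and 54 without rotenone replicate 3 of 9 weeks. All 49 genes kept their direction in all 20 fits, and 20 of them, 15 that rose and 5 that fell, were called in all 20. Each fit shares all but 1 of the libraries with the fit that chose the genes, which favours both counts. The 4 genes given by identifier were called in all 20, with adjusted p from 0.000179 to 0.0194 (edgeR), which their choice by the smallest p favours.

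**Figure D4:**
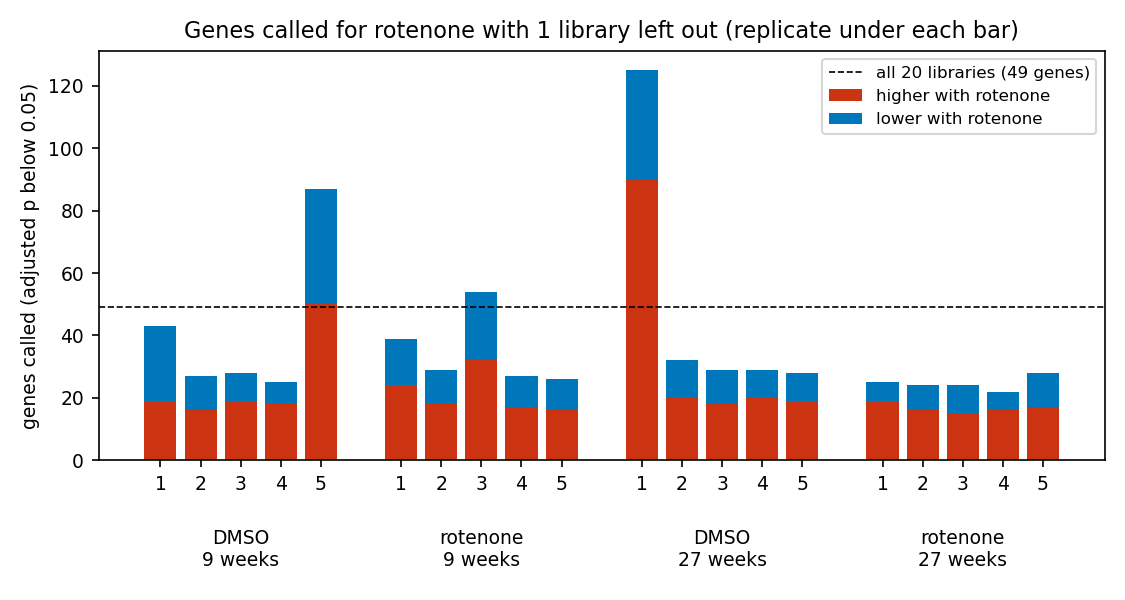
Genes called for rotenone over both ages with each library left out in turn, as stacked bars from 0 for genes higher (red) and lower (blue) with rotenone. The dashed line marks the 49 genes called with all 20 libraries. Bars rise above it without DMSO replicate 1 of 27 weeks (125), DMSO replicate 5 of 9 weeks (87) and rotenone replicate 3 of 9 weeks (54).

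Both ages contributed to the 49 calls. All 49 genes had the same direction at 9 and 27 weeks, as did 51.7% of all tested genes, and all had an unadjusted edgeR p below 0.05 at both ages, as did 0.977% of tested genes in a common direction (6.99% at 9 weeks and 14.4% at 27 weeks). Calls over both ages favour such genes by construction, so these counts describe the genes and support nothing further. Taken alone, 9 weeks gave 5 calls over all genes (0.0257%), 2 of them among the 49, and 27 weeks gave 76 (0.391%), 18 of them among the 49, 10 higher and 8 lower. The other 29 of the 49 genes were called at neither age taken alone.

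The sizes of change at each age were close for genes that rose, with median log2 changes of 0.45 at 9 weeks and 0.45 at 27 weeks, and 15 of 28 were larger at 27 weeks. For genes that fell the medians were -0.34 at 9 weeks and -0.48 at 27 weeks, and 15 of 21 were larger at 27 weeks. Tested directly, a difference in response between 9 and 27 weeks was called for 0 of the 49 (edgeR; 4 of all tested genes, 0.0206%), and 6 of the 49 had an unadjusted p below 0.05, as did 10.0% of tested genes. The smallest of these p-values belonged to a gene that fell from 31.1 ± 5.28 to 24.5 ± 2.24 CPM at 9 weeks and from 30.5 ± 6.37 to 14.0 ± 1.08 CPM at 27 weeks (SD, n = 5 each). Its log2 changes differed by -0.78 ± 0.19 (SE; edgeR adjusted p = 0.145). The additive fit that chose the 49 counts an unequal response as spread, which disfavours genes whose change differs between the ages. The close sizes and the 0 calls among the 49 are therefore a description.

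**Figure D5:**
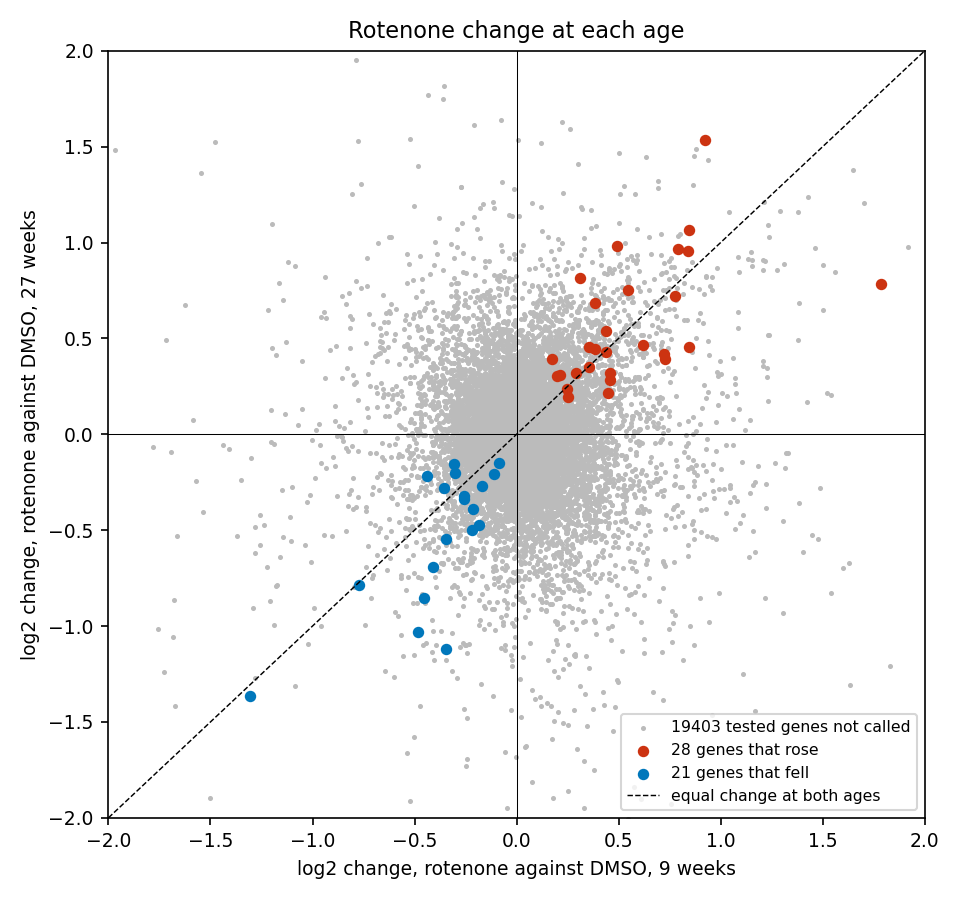
Log2 change with rotenone at 9 weeks (x axis) and 27 weeks (y axis) for tested genes, with the 28 genes that rose in red, the 21 that fell in blue and the rest in grey. All called genes shown lie in the quadrants of a common direction, which the choice of genes favours. Axes end at -2 and 2, and 58 genes lie outside, 2 of them called.

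For most genes the libraries bounded the size of the rotenone effect taken over both ages. Effects of opposite direction at the ages can cancel in it, and bounds within each age were not examined. The 95% interval of the log2 change lay within 1.5-fold in either direction for 15699 genes, 80.7% of those tested and within 2-fold for 18137 (93.2%). In the upper part by log2 CPM, 96.9% of genes were bounded within 1.5-fold, in the middle part 91.1% and in the lower part 54.0%. The median absolute log2 change over tested genes was 0.08 for rotenone and 0.20 for age. Rotenone held 5.28% of the variance of log2 CPM summed over genes, and age held 21.9%. The difference in response between the ages held 4.22%. An equal split over 19 degrees of freedom gives 5.26% each, which is no baseline for rotenone, since age took a larger share. Among the 49 genes, chosen for it, the median share was 53.5% for rotenone and 11.2% for age.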

How the data were processed

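Brain RNA of 20 killifish libraries was sequenced by the authors. Among tools, the submitters' processing notes list featureCounts 1.4.6-p4, STAR 2.4.1d and bcl2fastq 1.8.4. For the build, annotation and strand setting nothing is given in the sources used here. The authors deposited raw read counts per gene for 26739 genes, of which 3724 had no count. They also deposited RPKM values. These matched the counts within 0.0011 for 99.98% of 431241 values when the library totals were taken in turn down each column, and for 5.38% with each library's own total. The deposited RPKM therefore served only to recover gene lengths, and the RPKM printed here were recomputed from counts.

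From the counts, edgeR 4.0.16 (R 4.3.3) fitted age and rotenone as additive terms with TMM scaling, its filter on low counts over 4 groups, and a robust quasi-likelihood F-test. Benjamini-Hochberg adjustment ran over all 19452 tested genes, which held 99.96% of counts, at a threshold of 0.05. Effects within each age and their difference came from a fit with 1 mean per group. Log2 CPM used a prior count of 2. The common biological coefficient of variation was 0.216. No pair of libraries within a group agreed within sampling noise (chi-square per degree of freedom 7.80 to 57.1 over 40 pairs). The 2 genes per direction with the smallest p and a mean of at least 1 log2 CPM are given by identifier. Alternatives used DESeq2 1.42.0, limma 3.58.1 voom and sva 3.50.0, other scalings and filters, and libraries left out. The pipeline was run on counts simulated from the additive fit, which held no displaced library and no response that differed between ages. The outcome is not reported here. The comparison, the lists and the alternatives were chosen with earlier results of these data known. The gene lists and cell type markers drawn up could not be applied, because 0 of 26739 identifiers matched the gene table of assembly NfurGRZ-RIMD1. Replicates were numbered by order of deposit, and no batch is given in the labels.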

Additional observations from a re-analysis of the deposited data

Results flagged for a closer look

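Of 68 sets of 5 libraries compared, 5 held a library whose gap to its nearest neighbour exceeded 0.71 of the set's range; chance gives about 1 in 20. Genes with a count numbered 21427 in DMSO replicate 4 of 27 weeks, with the nearest library at 21600. The called gene with the largest rise stood at 2.43 CPM in rotenone replicate 5 of 27 weeks, with the nearest at 1.83 CPM. The gene with the second largest fall was at 0 CPM in rotenone replicate 3 of 9 weeks, with the nearest at 0.0435 CPM. This is a gap at the floor, since the rotenone libraries of 9 weeks held 0 to 1 counts of it. The gene with the largest rise in the co-varying block stood at 21.4 CPM in rotenone replicate 1 of 27 weeks, with the nearest at 31.1 CPM. The gene with the smallest p for a difference between ages stood at 21.8 CPM in DMSO replicate 5 of 9 weeks, with the nearest at 32.6 CPM.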

How the results depend on the processing

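The number of genes called for rotenone depended on the tool, the age term and single libraries. It was 237 with DESeq2 (115 higher, 122 lower, all 49 among them), 17 without the age term, 31 with 2 surrogate variables (24 of the 49 among them) and 96 without DMSO libraries 1 and 4 of 27 weeks; the cause was not tested. With 1 library left out it ranged from 22 to 125. With other scalings, filters, limma voom, the non-robust fit, 1 mean per group or 1 surrogate variable it lay between 38 and 67. The 4 genes given by identifier kept direction and call under all 32 alternatives run for each, with the highest adjusted p at 0.0442 (edgeR, limma or DESeq2). Their choice by the smallest p in the same libraries favours this. No paired analysis was possible because the labels give each library its own code and share no replicate number between groups. Intervals were widest in the lowest of 3 equal parts of the genes by level, where 54.0% lay within 1.5-fold; depth itself was not varied.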

Other observations

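The called gene with the largest fold rise was a low one. It held 9 to 25 counts in the DMSO libraries of 9 weeks and 47 to 64 in the rotenone libraries, or 0.703 ± 0.244 and 2.43 ± 0.267 CPM (SD, n = 5 each). At 27 weeks it went from 1.096 ± 0.424 to 1.89 ± 0.305 CPM (SD, n = 5 each), with overlap. Its log2 change over both ages was 1.27 ± 0.21 (SE; edgeR adjusted p = 0.00829), and the ages differed by -1.002 ± 0.352 (SE; edgeR adjusted p = 0.346).

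No gene was switched fully on or off by treatment. A total of 0 genes were counted in all 10 libraries of one treatment and in none of the other. In at least 5 rotenone libraries and no DMSO library 3 genes were counted, and in at least 5 DMSO libraries and no rotenone library 4.

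Among principal components of log2 CPM, the first held 27.4% of the variance, of which age took 68.5% and rotenone 4.21%. The eighth held 3.41% of the variance, of which rotenone took 33.5%, with DMSO libraries at -26.1 to 7.94 and rotenone libraries at -2.23 to 20.8. It is given because the share of rotenone was the largest there among the 8 components examined. In the others that share was at most 7.07%. The median SD of log2 CPM within a group was 0.18 for both groups of 9 weeks, 0.19 for DMSO of 27 weeks and 0.14 for rotenone of 27 weeks.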
